A study of Mus musculus with 35 samples.

Results

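Messenger RNA of the CXC chemokines Cxcl1, Cxcl2, Cxcl5, Cxcl9, Cxcl10, Cxcl12, Cxcl13, Cxcl14 and Cxcl16 and of the CX3C chemokine Cx3cl1 was measured in mouse brain hemispheres with Affymetrix expression arrays. The members were found by gene symbol, without regard to their values: every probe set annotated to one of these genes was taken, which gave 21 probe sets of 10 genes, among 34945 probe sets that carry a single gene symbol and 18193 genes in all. A probe set is a group of short oligonucleotides against 1 transcript that is read as 1 value, here on the log2 scale after robust multi-array averaging (RMA), so that a difference of 1 is a doubling of signal. All mice were male FVB. The groups were mice labelled beta2 adrenergic receptor knockout (KO) 24 h after middle cerebral artery occlusion (MCAO), a model of ischemic stroke, on 7 arrays, wild-type mice (WT) 24 h after MCAO on 7 arrays, KO and WT mice 24 h after a sham operation on 3 arrays each, and KO and WT mice without surgery (naive) on 7 and 8 arrays. RNA came from the whole hemisphere, the ischemic one after MCAO and that of the same side after sham surgery. The surgery arrays and the naive arrays were normalized apart and are not set against each other. The labels do not say that every array is a separate animal, so the p-values measure the spread between arrays.

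Chemokines are small secreted or membrane-held proteins that bind G protein-coupled receptors on leukocytes and direct their movement, and they are named after the spacing of conserved cysteines near the amino end. Cxcl1, Cxcl2 and Cxcl5 act on Cxcr2 and attract neutrophils, and their genes are switched on by inflammatory cytokines through NF-kappaB. Cxcl9 and Cxcl10 are interferon-inducible ligands of Cxcr3, a receptor of activated T cells and NK cells. Cxcl12, Cxcl13 and Cxcl14 are made constitutively in many tissues, and Cxcl16 and Cx3cl1 (fractalkine) are made as transmembrane proteins that proteases release. In the brain Cx3cl1 is made chiefly by neurons and its receptor Cx3cr1 is carried by microglia.

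The tissue label was borne out by its markers, since none of the listed neuron, astrocyte and oligodendrocyte markers measured was near background in any group. Near background here means a group mean below the 95th percentile of 80 probe sets for olfactory and vomeronasal receptors, which was 5.92 on the surgery arrays and 6.57 on the naive arrays. Some arrays stood apart. On WT naive array 6 the highest correlation with any other naive array was 0.811, against at least 0.978 between all others, and its 3 prime minus 5 prime difference of the actin control probes, a measure of RNA integrity, was 4.88. Pairs of KO naive arrays shared 3.87% to 6.38% of exactly equal values, against at most 0.106% for pairs of WT naive arrays, so genotype and processing cannot be told apart in the naive comparison. The actin difference was 0.426 to 1.75 on the KO MCAO arrays, 0.387 to 0.993 on WT MCAO arrays other than array 4, which read 1.70, 1.60 to 1.76 on the KO sham arrays and 0.863 to 1.01 on the WT sham arrays. Among the surgery arrays the Gapdh 3 prime minus 5 prime difference was 0.38 on KO MCAO array 2, 1.18 on KO MCAO array 5 and 0.00 on KO MCAO array 4, and it lay between -0.27 and -0.13 on all others. The number of arrays limits the precision, above all the 3 arrays of each sham group.

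Read from the brightest probe set of each gene, 1 of the 10 members was called after MCAO in KO and 7 were called in WT. In KO 1 of 10 genes, Cxcl10, rose and none fell in limma, at a p under 0.05 after Benjamini-Hochberg adjustment over the 18193 genes, where 25% of all genes were called (16.1% higher and 8.9% lower). In WT 5 of 10 rose (Cxcl1, Cxcl2, Cxcl10, Cxcl13 and Cxcl16) and 2 fell (Cxcl14 and Cx3cl1), where 15.9% of all genes were called (8.68% higher and 7.27% lower). The MCAO and sham groups stood apart with no overlap for 0 members in KO, against 24.8% of all genes, and for 5 in WT (Cxcl1, Cxcl2, Cxcl10, Cxcl16 and Cx3cl1), against 19.9%. The median log2 difference of the 10 members was -0.13 in KO, against -0.00 over all genes, and 0.36 in WT, against 0.05 over all genes. These gene counts leave out the other probe sets, which could differ. In KO every MCAO array lay above every sham array on Cxcl1 probe set 1419209_at, where 13.1% of all probe sets did so. Every KO MCAO array lay below every KO sham array on Cxcl14 probe set 1418457_at, but its difference did not pass the test. The share of all probe sets lying wholly below is not given here, so this separation has no baseline. Over the 21 probe sets, 2 rose and 1 fell in KO, where 12.8% of all probe sets were higher and 7.67% lower, and 6 rose and 3 fell in WT, where 6.05% were higher and 6.39% lower. Without WT sham array 1 the WT count was 3 and without WT sham array 3 it was 4, where 7.89% and 9.18% of all genes were called. The KO count was 3 without KO MCAO array 7, where 25.3% of all genes were called. It was 2 without KO MCAO array 1 (27.2% of all genes), WT MCAO array 4 (29.7%) or WT MCAO array 5 (24.6%). The difference between the genotypes in the change after MCAO passed the test for 2 members, Cxcl1 and Cxcl16, both with the smaller value in KO, and 9.59% of all genes were called, 5.5% with the smaller value in KO. It passed for 0 members without WT sham array 1 or 2 or KO sham array 2 or 3. It also passed for 0 without KO MCAO arrays 2 and 5 together, where 2.5% of all genes were called. It passed for 1 without WT sham array 3, WT MCAO array 1, 6 or 7 or KO MCAO array 2, 3, 5 or 7. These fits called 5.58% to 7.71% of all genes. Without KO MCAO array 1 it passed for 4, where 14.8% of all genes were called. Calls over all genes moved with these arrays: 0.55% of genes were called without WT sham array 1, 1.88% without WT sham array 2, 0.951% without KO sham array 2 and 0 of 18193 without KO sham array 3 in limma (4253 at an unadjusted p under 0.05).

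**Figure D1:**
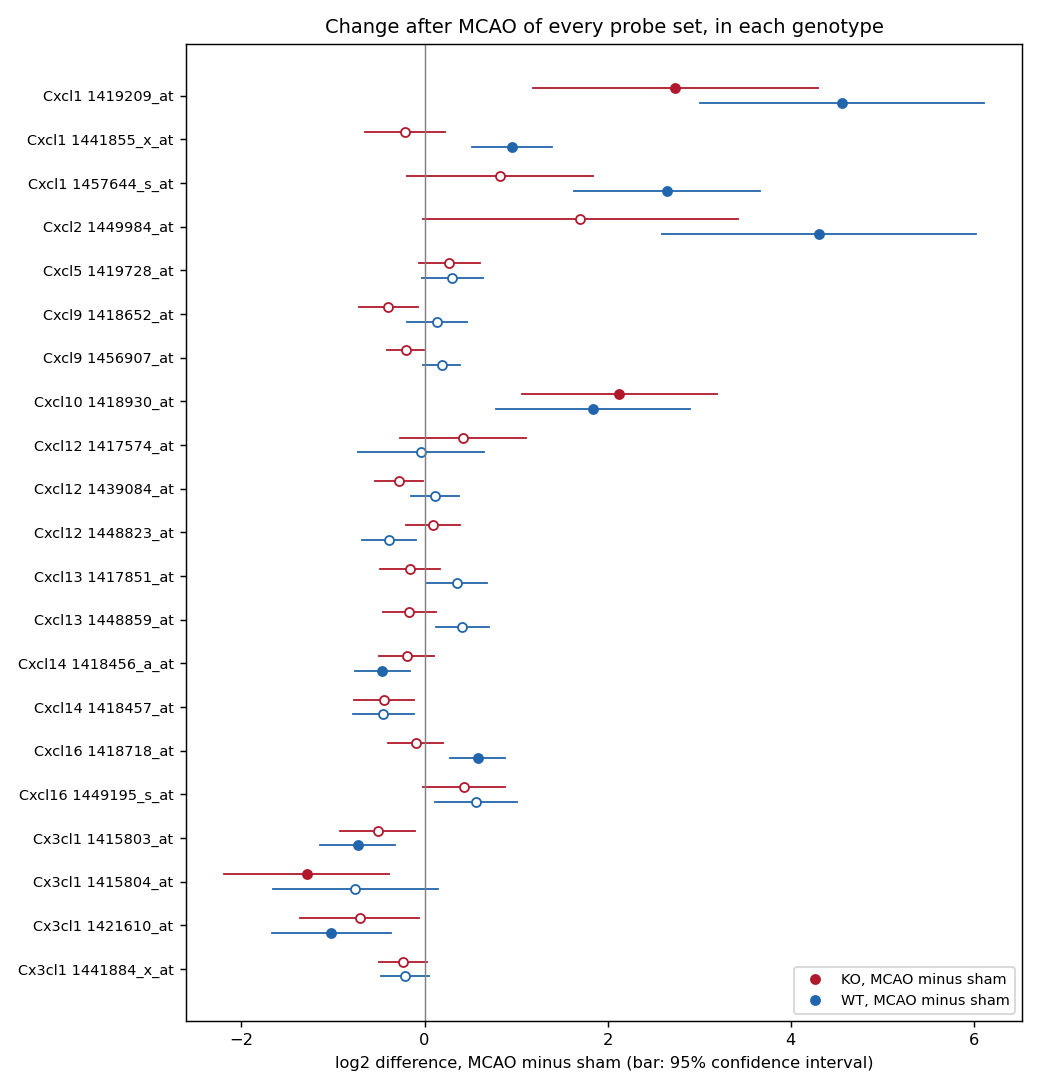
Log2 difference between MCAO and sham arrays for the 21 probe sets (rows), with KO above WT in each row and bars for the 95% confidence interval. Filled points passed an adjusted p of 0.05 over all probe sets and open points did not. Cxcl1 (1419209_at) and Cxcl2 reach 4.56 and 4.31 in WT, and the Cx3cl1 rows lie left of 0 in both genotypes.

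Cxcl1 is a neutrophil attractant made by stressed endothelium, astrocytes and myeloid cells. Its probe set 1419209_at read 5.40 at the lowest, 8.86 at the median and 9.19 at the highest of the 7 KO MCAO arrays, against 4.98, 4.77 and 4.91 on the KO sham arrays. In WT the MCAO arrays ran between 7.27 and 10.07 with a median of 9.06, and the sham arrays read 4.51, 4.41 and 4.06. Every MCAO array thus lay above every sham array of its genotype, which held for 13.1% of all probe sets in KO and 8.71% in WT. The rise was 2.74 on the log2 scale in KO (SE 0.75, adjusted p = 0.0137 over all probe sets, 6.68-fold) and 4.56 in WT (SE 0.75, adjusted p = 0.000465, 23.6-fold). The difference of these rises, KO minus WT, was -1.82 (95% confidence interval -4.02 to 0.37, adjusted p = 0.253) and did not pass the test. The KO call was lost when KO sham array 2 or 3 was left out (adjusted p = 0.0603 and 0.0564). Sham values of both genotypes were near background, so the folds may understate the change. Fewer cells of a type and less RNA per cell cannot be told apart in these whole-hemisphere samples.

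The other Cxcl1 probe sets moved less. Probe set 1457644_s_at averaged 7.84 ± 1.12 on KO MCAO arrays, 8.64 ± 0.61 on WT MCAO arrays, 7.02 ± 0.32 on KO sham arrays and 5.98 ± 0.19 on WT sham arrays (SD, n = 7, 7, 3 and 3). It rose by 2.65 in WT (SE 0.49, adjusted p = 0.00129), while the KO difference was 0.82 (SE 0.49, adjusted p = 0.234). Probe set 1441855_x_at, the brightest of the gene and therefore the one in the gene counts, read 7.33, 7.93 and 8.26 as the lowest, median and highest of KO MCAO, against 7.80, 8.16 and 8.17 on KO sham arrays. In WT it read 7.68, 8.42 and 8.71 as the lowest, median and highest of MCAO, against 7.24, 7.38 and 7.57 on sham arrays. The KO groups overlapped and the WT groups did not. Its difference was -0.21 in KO (SE 0.21, adjusted p = 0.468) and 0.95 in WT (SE 0.21, adjusted p = 0.00362), and the genotypes differed in it by -1.17 (SE 0.29, adjusted p = 0.0243). That difference between genotypes was -0.999 (adjusted p = 0.0524) without KO MCAO arrays 2 and 5 and -0.90 (adjusted p = 0.0874) with the actin difference as a covariate. It was also lost without WT sham array 1 or 2 or KO sham array 2 or 3 (adjusted p = 0.0597 to 0.0956). The suffix x marks a probe set with probes that can also match other transcripts.

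Cxcl2, the close paralogue of Cxcl1 with the same receptor, was read by 1 probe set. It read 4.31, 7.79 and 8.51 as the lowest, median and highest of KO MCAO, against 4.45, 5.11 and 5.10 on KO sham arrays. The WT MCAO arrays read 7.37, 8.14 and 10.12 as lowest, median and highest, against 4.27, 4.06 and 3.86 on WT sham arrays. In KO 4 of 7 MCAO arrays lay above the highest sham array, and in WT 7 of 7 did. Cxcl2 rose by 4.31 on the log2 scale in WT (SE 0.81, adjusted p = 0.00118), which is at face value 19.8-fold, and its sham values were near background in both genotypes, as for Cxcl1. In KO the log2 difference was 1.70 (95% confidence interval 0.01 to 3.40, adjusted p = 0.128). It became 2.08 (adjusted p = 0.049) without KO MCAO array 7, 2.53 (adjusted p = 0.0149) without KO MCAO arrays 2 and 5, and 2.50 (adjusted p = 0.0275) with the Gapdh difference as a covariate. The genotypes differed in the change by -2.61 (95% confidence interval -5.002 to -0.21, adjusted p = 0.128), which did not pass the test.

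Cxcl2 averaged 6.59 ± 2.02 in KO MCAO, 8.37 ± 0.85 in WT MCAO, 4.89 ± 0.38 in KO sham and 4.06 ± 0.21 in WT sham (SD, n = 7, 7, 3 and 3). Probe set 1419209_at of Cxcl1 averaged 7.63 ± 1.80 in KO MCAO, 8.89 ± 0.84 in WT MCAO, 4.89 ± 0.10 in KO sham and 4.33 ± 0.24 in WT sham (SD, n = 7, 7, 3 and 3). For both genes WT MCAO had the highest mean and WT sham the lowest. The MCAO groups overlapped for both genes, and KO minus WT after MCAO was -1.78 for Cxcl2 (SE 0.63, adjusted p = 0.179) and -1.26 for Cxcl1 (SE 0.58, adjusted p = 0.265). The sham groups did not overlap for either gene, and neither difference between them passed the test.

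Cxcl5, which also attracts neutrophils, was near background in all 6 groups. Its probe set read 3.30 to 4.08 on KO MCAO arrays, 3.07 to 3.86 on WT MCAO arrays, 3.37 to 3.43 on KO sham arrays and 3.13 to 3.29 on WT sham arrays, and no surgery comparison of it passed the test.

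The wide spread of Cxcl1 and Cxcl2 among KO MCAO arrays lay between arrays 2, 5 and 7 and the others. Cxcl1 (1419209_at) read 5.91, 5.83 and 5.40 there, and 8.86 to 9.19 on the other 4 KO MCAO arrays. Cxcl2 read 4.67, 4.38 and 4.31 there, and 7.79 to 8.51 on the other 4. The same arrays differed in marker sums, each being the sum of linear signals over a list. The neutrophil list (10 of 10 genes measured, led by the calprotectin genes S100a8 and S100a9) summed to 500, 455 and 409 on arrays 2, 5 and 7, to 857 to 1299 on the other KO MCAO arrays, to 1209 to 4690 on WT MCAO arrays, and to 458 to 544 and 407 to 428 on KO and WT sham arrays. Of that list 7 genes were near background in KO MCAO and 5 in WT MCAO, among them the granule gene Camp in both. After MCAO 2 of the 10 genes were higher and 3 lower in KO, where 16.1% and 8.9% of all genes were. In WT 2 were higher and 0 lower, where 8.68% and 7.27% of all genes were. The genotypes differed in the change of 4, all smaller in KO, where 5.5% of all genes were. The median log2 difference of the list was -0.26 in KO and 0.33 in WT. The sums thus do not stand for every gene of the list. The monocyte and macrophage list (7 of 8 genes measured) summed to 1182, 1254 and 1271 on KO MCAO arrays 2, 5 and 7, and to 3642 to 5648 on the other 4, with 2524 to 5082 in WT MCAO, 589 to 681 in KO sham and 534 to 614 in WT sham. The neuron list (8 genes) summed to 54946, 54807 and 50967 on arrays 2, 5 and 7, against 46010 to 48204 on the other KO MCAO arrays, 42440 to 50909 in WT MCAO, 50323 to 56358 in KO sham and 52595 to 57732 in WT sham. The part of these cell markers and of RNA integrity in the chemokine values was not tested beyond the alternatives given above.

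**Figure D2:**
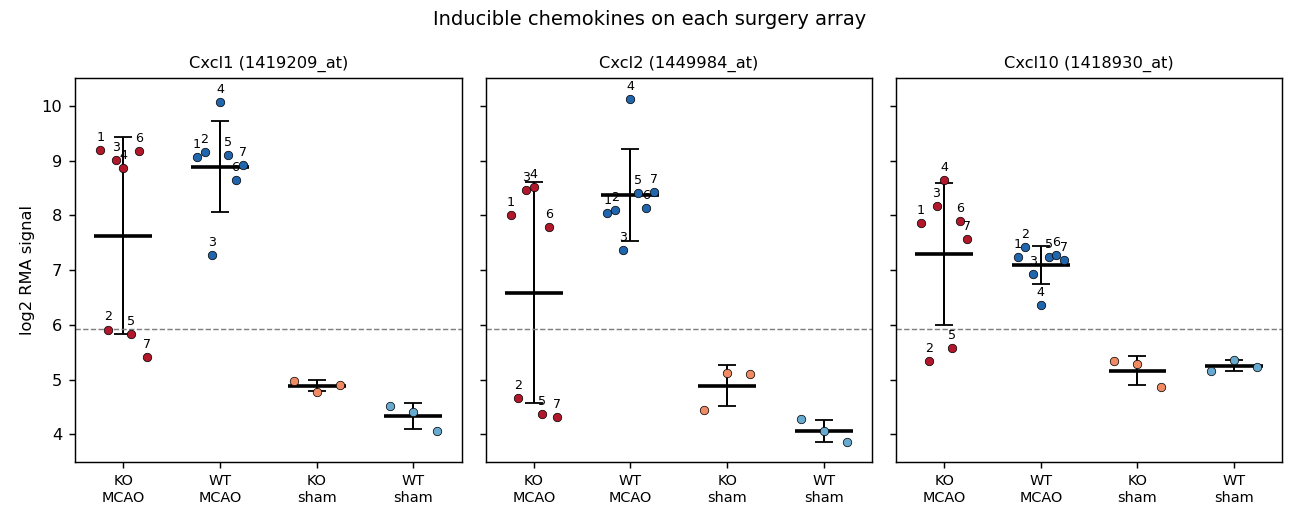
Log2 RMA signal of Cxcl1 (1419209_at), Cxcl2 and Cxcl10 on every surgery array (points, numbered by array in the MCAO groups), with the group mean (horizontal bar) and SD (error bar), the dashed line marking the near-background level of 5.92. KO MCAO arrays 2, 5 and 7 lie near the sham arrays for Cxcl1 and Cxcl2, and array 7 lies among the high ones for Cxcl10.

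The promoters of Cxcl1, Cxcl2 and Cxcl10 are shown because these members had the largest rises after MCAO in WT. They were taken from RefSeq on mouse GRCm38.p6, from 250 bases before to 50 bases after the annotated start, and 8 of 10 members were in the table. Capitals mark matches to the NF-kappaB consensus or to the interferon-stimulated response element (GAAA, any 2 bases and GAAA), both searched on both strands. Positions count from the annotated start. The Cxcl1 promoter is on chr5:90890995-90891294, plus strand, the Cxcl2 promoter on chr5:90903649-90903948, plus strand, and the Cxcl10 promoter on chr5:92348840-92349139, minus strand.
Cxcl1: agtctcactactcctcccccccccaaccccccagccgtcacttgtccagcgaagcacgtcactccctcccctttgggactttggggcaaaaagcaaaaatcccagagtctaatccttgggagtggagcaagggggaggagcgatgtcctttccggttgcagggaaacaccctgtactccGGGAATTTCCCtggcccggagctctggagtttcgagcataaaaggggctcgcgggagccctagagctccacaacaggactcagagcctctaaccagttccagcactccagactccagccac
Cxcl2: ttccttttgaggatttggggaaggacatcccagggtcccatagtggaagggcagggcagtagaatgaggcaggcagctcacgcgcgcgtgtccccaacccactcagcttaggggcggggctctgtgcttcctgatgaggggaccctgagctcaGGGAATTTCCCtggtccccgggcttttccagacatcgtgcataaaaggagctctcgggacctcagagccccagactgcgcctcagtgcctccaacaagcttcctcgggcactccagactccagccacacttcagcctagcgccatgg
Cxcl10: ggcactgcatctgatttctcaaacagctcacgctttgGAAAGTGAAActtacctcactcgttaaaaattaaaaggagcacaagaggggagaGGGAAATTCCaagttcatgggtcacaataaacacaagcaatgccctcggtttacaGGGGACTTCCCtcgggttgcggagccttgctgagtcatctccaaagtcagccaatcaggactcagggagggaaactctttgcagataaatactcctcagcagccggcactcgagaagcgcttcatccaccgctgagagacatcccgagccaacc

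The same 11 letters, GGGAATTTCCC, stood at -71 to -61 in the Cxcl1 promoter and at -97 to -87 in the Cxcl2 promoter, each holding 2 overlapping matches, 1 per strand. Cxcl10 held the interferon element at -213 to -204 and NF-kappaB matches at -159 to -150 and -104 to -94. Cxcl14 held GAAACAGAAA at -172 to -163 and no NF-kappaB match, and Cxcl9, Cxcl12, Cxcl13 and Cx3cl1 held neither motif in this window. Of 32841 promoters of the same length, 8.46% held an NF-kappaB match, 3.44% an interferon element and 0.247% both. A match is a run of letters and was not tested for binding. The genes of Cxcl1, Cxcl2, Cxcl5, Cxcl9, Cxcl10 and Cxcl13 are all on chromosome 5, with Cxcl1 at 90891245 to 90893121 and Cxcl2 at 90903899 to 90905938.

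Cxcl10 rose in both genotypes. It read 5.34, 7.85 and 8.64 as the lowest, median and highest of KO MCAO, against 5.34, 5.29 and 4.86 on KO sham arrays. In WT it read 6.36, 7.23 and 7.42 as the lowest, median and highest of MCAO, against 5.16, 5.37 and 5.23 on sham arrays. KO MCAO array 2 lay within the sham range and the other 6 above it, and the WT groups did not overlap. The rise was 2.13 in KO (SE 0.50, adjusted p = 0.00445, 4.37-fold) and 1.84 in WT (SE 0.50, adjusted p = 0.0165, 3.58-fold), over sham values that were near background in both genotypes. The WT call was lost without WT sham array 1 (adjusted p = 0.0729) or 3 (adjusted p = 0.0593). The rises differed by 0.29 (95% confidence interval -1.19 to 1.77, adjusted p = 0.799), and KO minus WT after MCAO was 0.20 (95% confidence interval -0.61 to 1.01, adjusted p = 0.809).

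Cxcl10 did not follow Cxcl1 and Cxcl2 on every array. KO MCAO arrays 2 and 5 were low for all of them, at 5.34 and 5.58 for Cxcl10, but array 7 read 7.56 for Cxcl10. WT MCAO array 4 had the highest Cxcl1 (10.07) and Cxcl2 (10.12) of its group and the lowest Cxcl10 (6.36). Its neutrophil sum, 4690, was also the highest of the group. The SD of Cxcl10 was 1.30 in KO MCAO and 0.35 in WT MCAO (n = 7 each).

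**Figure D3:**
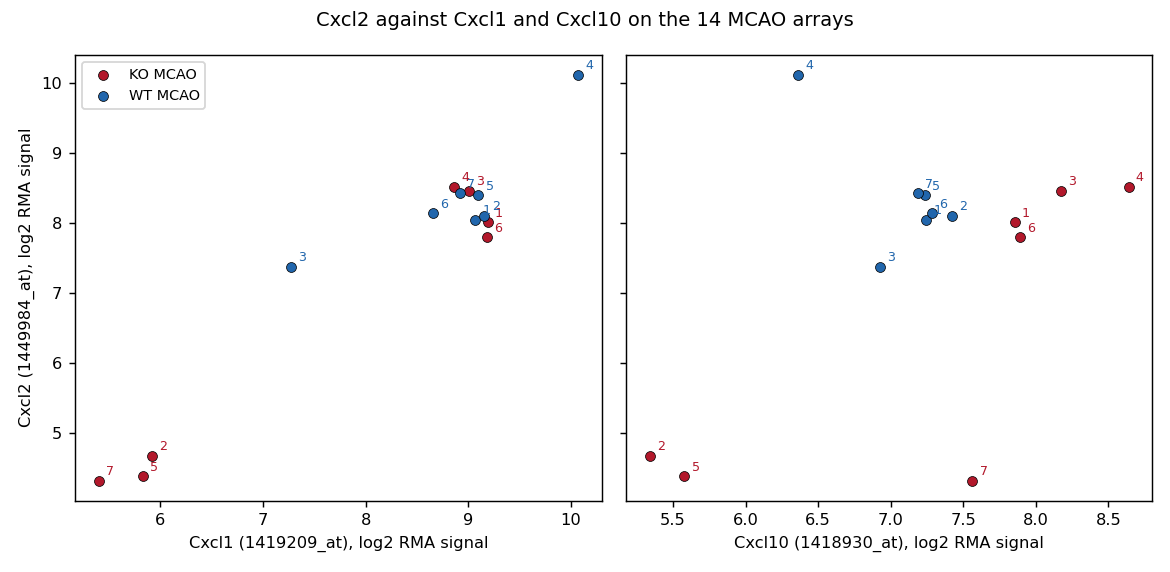
Log2 RMA signal of Cxcl2 against Cxcl1 (1419209_at, left) and against Cxcl10 (right) on the 14 MCAO arrays, numbered by array and coloured by genotype. Cxcl2 and Cxcl1 run together on KO arrays 2, 5 and 7 at the low end and WT array 4 at the high end, while KO array 7 and WT array 4 leave that order for Cxcl10.

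Cxcl9, the other Cxcr3 ligand measured, was near background in all 6 groups on both of its probe sets. Probe set 1418652_at read 4.43 to 5.16 on KO MCAO arrays, 4.29 to 5.05 on WT MCAO arrays, 4.82 to 5.29 on KO sham arrays and 4.48 to 4.69 on WT sham arrays. Its difference was -0.40 in KO (adjusted p = 0.0644) and 0.13 in WT (adjusted p = 0.576). Without KO MCAO array 1, at 5.16 the highest of its group, the KO difference was -0.48 (adjusted p = 0.0128) and the difference between genotypes -0.62 (adjusted p = 0.0362).

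Of the constitutive ligands, Cxcl12 passed the test in no surgery comparison, Cxcl13 rose in WT and Cxcl14 fell in WT. Cxcl12, which holds Cxcr4-bearing cells in place and guides their entry, averaged 9.09 ± 0.37 in KO MCAO, 8.66 ± 0.73 in WT MCAO, 8.67 ± 0.33 in KO sham and 8.69 ± 0.39 in WT sham on probe set 1417574_at (SD, n = 7, 7, 3 and 3). All these groups overlapped, and none of its 3 probe sets passed the test. WT MCAO arrays 3 and 4 read 9.32 and 9.99 and the other 5 read 7.96 to 8.44. Probe set 1448823_at differed by 0.09 in KO (adjusted p = 0.672) and by -0.39 in WT (adjusted p = 0.0791), and 1439084_at was near background in the surgery groups.

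Cxcl13, the B-cell attractant that acts on Cxcr5, had a narrow range. Probe set 1448859_at averaged 6.23 ± 0.13 in KO MCAO, 6.38 ± 0.30 in WT MCAO, 6.40 ± 0.08 in KO sham and 5.97 ± 0.08 in WT sham (SD, n = 7, 7, 3 and 3). It rose by 0.41 in WT (SE 0.14, adjusted p = 0.0448) and differed by -0.17 in KO (SE 0.14, adjusted p = 0.379). The WT groups overlapped, because MCAO array 5 read 5.85. The WT call held in 5 of 20 fits that left out 1 array, which were WT MCAO array 2 or 5 or KO MCAO array 1, 4 or 7, and its other probe set was near background in all groups.

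Cxcl14 is a chemokine of epithelia and brain. Probe set 1418456_a_at read 9.64, 9.89 and 10.10 as the lowest, median and highest of KO MCAO, against 10.30, 10.06 and 9.90 on KO sham arrays. In WT it read 9.19, 9.39 and 9.90 as the lowest, median and highest of MCAO, against 10.08, 9.92 and 9.82 on sham arrays. It fell by 0.46 in WT (SE 0.14, adjusted p = 0.0310), with overlapping groups, and the KO difference was -0.20 (SE 0.14, adjusted p = 0.315). The WT call was lost without any 1 of the WT sham arrays or WT MCAO array 3, 6 or 7 (adjusted p = 0.051 to 0.163). Probe set 1418457_at differed by -0.44 in KO (adjusted p = 0.0528) and by -0.45 in WT (adjusted p = 0.0682). After MCAO Cxcl14 was 0.42 higher in KO than in WT on 1418456_a_at (SE 0.11, adjusted p = 0.117) and -0.07 apart on 1418457_at (adjusted p = 0.797), and neither passed.

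Cxcl16 binds Cxcr6 and also serves as a scavenger receptor for oxidized lipoprotein. Probe set 1418718_at read 7.58, 8.00 and 8.24 as the lowest, median and highest of KO MCAO, against 7.78, 8.19 and 8.17 on KO sham arrays. In WT it read 7.89, 8.19 and 8.52 as the lowest, median and highest of MCAO, against 7.61, 7.49 and 7.65 on sham arrays. The KO groups overlapped, and every WT MCAO array lay above every WT sham array. Cxcl16 rose by 0.58 in WT (SE 0.14, adjusted p = 0.0084) and differed by -0.10 in KO (SE 0.14, adjusted p = 0.638). The genotypes differed in this change by -0.68 (SE 0.20, adjusted p = 0.0410).

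Cxcl16 averaged 7.95 ± 0.24 in KO MCAO, 8.16 ± 0.21 in WT MCAO, 8.04 ± 0.23 in KO sham and 7.58 ± 0.08 in WT sham (SD, n = 7, 7, 3 and 3). KO MCAO, WT MCAO and KO sham overlapped, and KO sham stood above WT sham without overlap (KO minus WT 0.46, SE 0.17, adjusted p = 0.0922). The call between genotypes held in 8 of 20 fits that left out 1 array, and was lost without any 1 of the WT sham arrays, KO sham array 2 or 3, WT MCAO array 1, 6 or 7 or KO MCAO array 2, 3, 5 or 7 (adjusted p = 0.0504 to 0.13). That call was also lost with the actin difference as a covariate and without KO MCAO arrays 2 and 5 together. The other probe set of Cxcl16 was near background in all groups.

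Cx3cl1 fell after MCAO in WT, and its brightest probe set did not pass the test in KO. Probe set 1415803_at read 10.78, 11.36 and 11.84 as the lowest, median and highest of KO MCAO, against 12.06, 11.95 and 11.71 on KO sham arrays. In WT it read 10.91, 11.13 and 11.58 as the lowest, median and highest of MCAO, against 12.24, 11.86 and 11.75 on sham arrays. Only KO MCAO array 7, at 11.84, reached into the sham range of its genotype, and the WT groups did not overlap. The gene fell by 0.73 in WT (SE 0.19, adjusted p = 0.0140), and the KO difference was -0.51 (SE 0.19, adjusted p = 0.0581). The WT call was lost without WT sham array 1 (log2 difference -0.58, adjusted p = 0.117), while the KO difference passed without KO MCAO array 7 (-0.58, adjusted p = 0.028), without WT MCAO array 4 (adjusted p = 0.0472) and without KO MCAO arrays 2 and 5 (-0.60, adjusted p = 0.0448). The changes differed between genotypes by 0.22 on this probe set (95% confidence interval -0.36 to 0.80, adjusted p = 0.620 over all probe sets).

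Other Cx3cl1 probe sets differed in which genotype passed. Probe set 1415804_at fell by 1.29 in KO (SE 0.43, adjusted p = 0.0398) and differed by -0.76 in WT (SE 0.43, adjusted p = 0.263). In KO MCAO it read 7.76 on array 4 and 8.38 on array 5, against 9.11 to 10.65 on the other 5 arrays, and with the Gapdh difference as a covariate the KO value was -0.83 (adjusted p = 0.150). Its KO call was also lost without any 1 of the KO sham arrays or KO MCAO array 2 or 5 (adjusted p = 0.0631 to 0.122). Probe set 1421610_at differed by -0.71 in KO (SE 0.31, adjusted p = 0.108) and fell by 1.02 in WT (SE 0.31, adjusted p = 0.0357). Without KO MCAO array 7 its KO value was -0.93 (adjusted p = 0.00659), and its WT call was lost without any 1 of the WT sham arrays or WT MCAO array 4, 6 or 7. The difference between genotypes passed the test for neither set (adjusted p = 0.580 and 0.662), and 1441884_x_at was near background in all groups. The neuron list, which includes genes from cells that make Cx3cl1, had 0 of 8 genes called in KO and 2 of 8 lower in WT after MCAO, where 8.9% and 7.27% of all genes were lower.

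**Figure D4:**
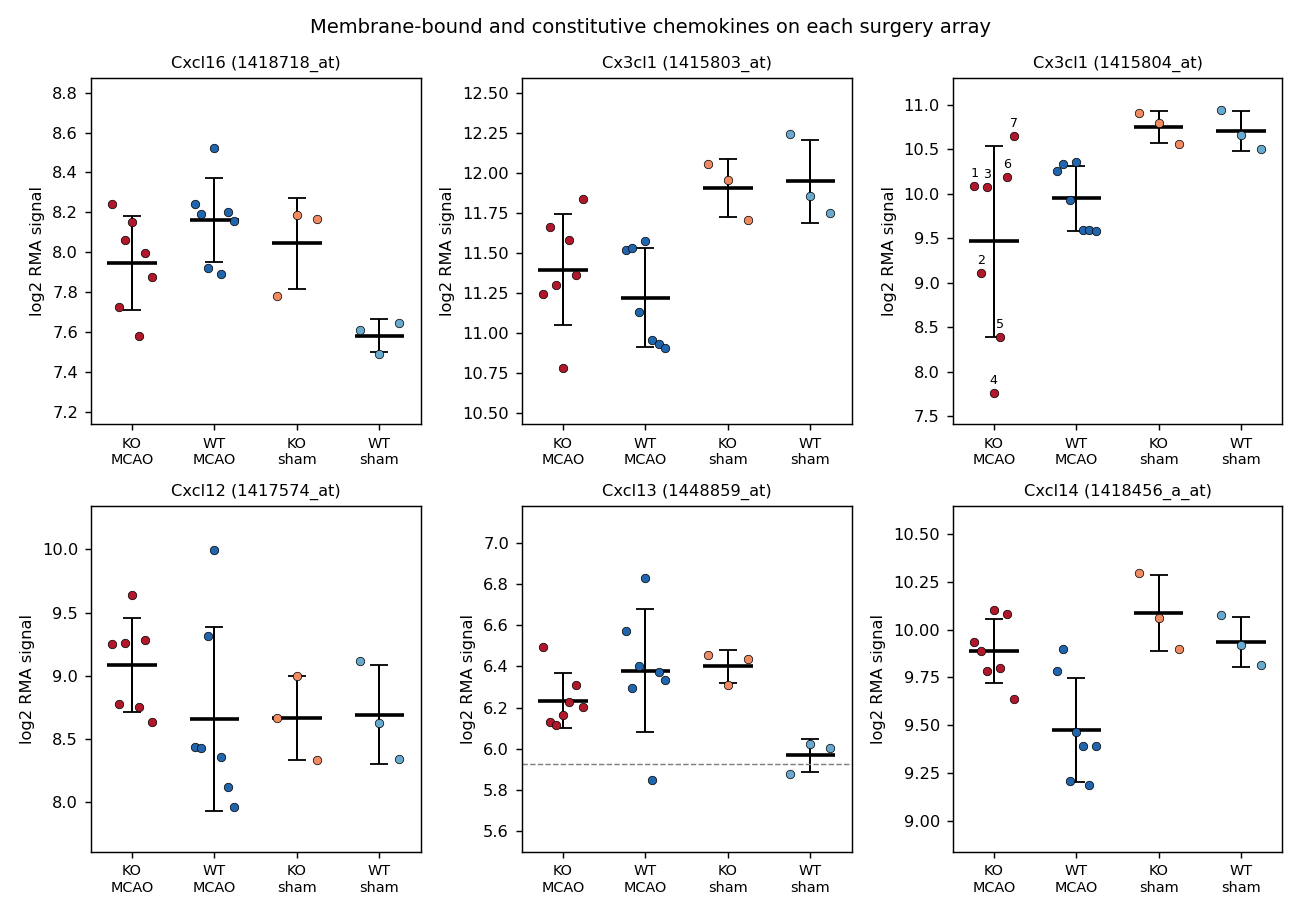
Log2 RMA signal of Cxcl16, Cx3cl1 (1415803_at and 1415804_at), Cxcl12, Cxcl13 and Cxcl14 on every surgery array (points), with the group mean (horizontal bar) and SD (error bar), and the near-background level of 5.92 as a dashed line where it is in range. The mean of WT sham lies below those of the other groups for Cxcl16 and Cxcl13, and Cx3cl1 lies lower on the MCAO arrays than on the sham arrays apart from KO MCAO array 7.

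Between the genotypes after MCAO, 0 of 10 members passed the test in limma, and 0.044% of all genes were called. At an unadjusted p under 0.05 were 3 members, against 3165 of all 18193 genes. After sham surgery 0 of 10 passed, with 4 at an unadjusted p under 0.05, against 4702 of all 18193 genes. The adjusted test called 6.05% of all genes after sham surgery. That share rested on single arrays: of 18193 genes, limma called 0 without WT sham array 2 or KO sham array 3 (3568 and 3075 at an unadjusted p under 0.05), 19 without KO sham array 2, 105 without WT sham array 3 and 120 without WT sham array 1, against 1101 with all arrays. In that comparison 6 members, Cxcl1, Cxcl2, Cxcl5, Cxcl9, Cxcl13 and Cxcl16, had every KO array above every WT array, where 20.4% of all genes did. The differences were 0.65 for Cxcl1 (adjusted p = 0.107), 0.82 for Cxcl2, 0.17 for Cxcl5, 0.45 for Cxcl9 (adjusted p = 0.123), 0.43 for Cxcl13 (adjusted p = 0.101) and 0.46 for Cxcl16. The sham arrays of the genotypes also differed in the actin 3 prime minus 5 prime difference given above. With that difference as a covariate, 0 of 10 members passed after sham and 6 of 18193 genes were called, against 1101 without it. Its part in these values was not tested beyond that fit. In a fit to the 6 sham arrays alone, 5 of the 6 non-overlapping members (all but Cxcl5) were higher in KO. In that fit 19% of all genes were called, 1610 of them higher. The change after MCAO in each genotype uses these same sham arrays.

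Of 8 measured receptors, 2 rose and 1 fell in KO after MCAO, where 16.1% of all genes were higher and 8.9% lower, and 0 passed in WT, where 15.9% were called. Cxcr1 was not analysed here. Ackr3, a scavenger of Cxcl12, rose by 1.48 (SE 0.35, adjusted p = 0.0043), Ackr1, which binds Cxcl1 and related ligands without signalling, rose by 0.48 (adjusted p = 0.0318), and Cxcr3 fell by 0.33 (adjusted p = 0.0310). The Ackr1 and Cxcr3 calls were lost without any 1 of the KO sham arrays, and also without KO MCAO array 3 or 4 for Ackr1 and KO MCAO array 5 for Cxcr3 (adjusted p = 0.0539 to 0.16). In WT Ackr3 was at 0.98 (adjusted p = 0.0606) and Cxcr2, the receptor of Cxcl1 and Cxcl2, was at 0.30 (adjusted p = 0.0760). The genotypes differed in the change of Cxcr3 by -0.53 (SE 0.15, adjusted p = 0.0392), a call lost in 12 of 20 fits that left out 1 array, any 1 of the sham arrays, WT MCAO array 6 or 7 or KO MCAO array 2, 3, 5 or 7 (adjusted p = 0.0512 to 0.107), and with the actin or Gapdh covariate. Cxcr4, the receptor of Cxcl12, was 0.60 higher in KO than in WT after MCAO without passing (SE 0.14, adjusted p = 0.111). Cx3cr1 differed by 0.12 in KO (adjusted p = 0.774) and by -0.36 in WT (adjusted p = 0.352). The median over the 8 receptors was 0.08 in KO and 0.15 in WT.

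Among 6 further CXC ligands, 1 rose in KO and 2 rose in WT, where 16.1% and 8.68% of all genes were higher. Pf4, the platelet chemokine, rose by 1.66 in KO (SE 0.41, adjusted p = 0.0057) and by 1.83 in WT (SE 0.41, adjusted p = 0.0043). Cxcl3, another Cxcr2 ligand, rose by 1.38 in WT (SE 0.34, adjusted p = 0.0085), with MCAO and sham means both near background.

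Of 16 measured inducers and signal genes, 7 rose and 1 fell in KO, with a median of 0.34, where 16.1% of all genes were higher and 8.9% lower. In WT 10 of the 16 rose, with a median of 0.64, where 8.68% of all genes were higher. Stat3, which carries interleukin 6 signals, rose by 1.79 in KO and 1.65 in WT, and Il6 rose by 4.80 in WT (SE 0.77). Il6 also passed the test in KO after MCAO, and in naive mice it passed as lower in KO than in WT. It kept both of these calls in every fit that left out 1 array, but the naive call was lost at an adjusted p under 0.01. Nfkb2, a subunit of NF-kappaB, differed between the genotypes in its change by -1.04 (SE 0.16, adjusted p = 0.0148) and was 0.82 higher in KO than in WT after sham surgery (adjusted p = 0.0108). The first of these calls was lost without KO sham array 3 (adjusted p = 0.0702), and the second without WT sham array 2 or KO sham array 2 or 3 (adjusted p = 0.0503 to 0.0767), with the actin covariate and with the mean of the gene's probe sets. The sum of this list was 5557, 5287 and 5695 on KO MCAO arrays 2, 5 and 7 and 8769 to 10099 on the other 4, with 7863 to 10182 in WT MCAO, 4099 to 4342 in KO sham and 3612 to 4002 in WT sham. Of the sheddases that release Cx3cl1 and Cxcl16, Adam10 rose by 0.62 in KO (SE 0.10, adjusted p = 0.00021), and its change differed between the genotypes by 0.78 (adjusted p = 0.0161), while it was -0.64 apart in KO sham against WT sham (adjusted p = 0.0160). These 2 Adam10 calls between genotypes were lost without KO sham array 3, with the actin covariate and with the mean of the gene's probe sets, which also ended its KO call, and the sham call was lost also without WT sham array 2 or KO sham array 2. Adam17 passed in no comparison.

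The genes most like a member were those with the highest Pearson correlation of deviations from the group mean over the 14 MCAO arrays, among genes above the median level. The arrays are not evenly spread, since KO MCAO arrays 2, 5 and 7 lie apart for Cxcl1 and Cxcl2, so the correlations describe these 14 arrays and carry no test. For Cxcl1 (1441855_x_at) they were Hrct1 (0.92), the heat shock gene Hspb1 (0.91) and the acute-phase gene Lcn2 (0.89). For the Cxcl1 probe set 1419209_at they were Lcn2 (0.98), Dcn (0.94) and Sh3pxd2a (0.93). For Cxcl10 they were the heme oxygenase gene Hmox1 (0.96), the CC chemokine gene Ccl4 (0.95) and Aspscr1 (0.95). For Cx3cl1 they were Mllt1 (0.94), the axonal spectrin gene Sptbn4 (0.93) and the neuronal G protein gene Gnao1 (0.93).

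In naive mice 3 of 10 members passed the test, with Cxcl12 higher and Cxcl2 and Cxcl9 lower in KO than in WT, where 14.7% of all genes were called (6.37% higher and 8.31% lower). Without WT naive array 6, 36.5% of all genes were called, and 4 members passed, with Cxcl5 lower in KO as the added one (-0.15, adjusted p = 0.0264). Over the 21 probe sets 2 were higher and 3 lower, where 6.89% of all probe sets were higher and 9.39% lower. Probe set 1417574_at of Cxcl12 read 10.11, 10.24 and 10.39 as the lowest, median and highest of the 7 KO arrays, against 9.08, 9.62 and 10.02 of the 8 WT arrays. The groups did not overlap, and KO lay wholly above WT for 5.54% of all genes. The difference was 0.65 (SE 0.13, adjusted p = 0.00401). On 1439084_at it was 0.63 (SE 0.10, adjusted p = 0.000487), with 6.74 to 7.37 in KO and 6.40 to 6.78 in WT, the WT mean being near background. On 1448823_at, with 9.05 to 9.41 in KO and 9.08 to 9.77 in WT, it was -0.00 (95% confidence interval -0.22 to 0.21, adjusted p = 0.988), so the Cxcl12 probe sets disagreed.

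Cxcl2 and Cxcl9 were near background in both naive groups. The lowest value on an array was 3.19 to 3.28 on KO naive arrays and 3.49 to 3.73 on WT naive arrays. The array medians went the other way, at 7.47 to 7.53 in KO and 7.16 to 7.41 in WT. The part of the lower floor in the near-background differences was not tested. Cxcl2 read 3.67, 3.94 and 4.27 as the lowest, median and highest of KO, against 4.20, 4.37 and 4.70 of WT (difference -0.46, SE 0.10, adjusted p = 0.00451). Cxcl9 (1418652_at) read 5.11, 5.37 and 5.51 in KO, against 5.51, 5.69 and 6.001 in WT (difference -0.35, SE 0.08, adjusted p = 0.00692), and its other probe set differed by -0.01 (adjusted p = 0.979). Probe set 1419209_at of Cxcl1, also near background, differed by -0.44 (SE 0.14, adjusted p = 0.0437), a call lost in 12 of 15 fits that left out 1 array.

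The other members did not pass in naive mice. Cx3cl1 (1415803_at) read 12.54 to 12.61 in KO and 12.27 to 12.64 in WT apart from WT array 6 at 7.36. Its difference was 0.73 with that array (adjusted p = 0.473) and 0.09 without it (adjusted p = 0.207). Cxcl10 differed by 0.03 (adjusted p = 0.857), Cxcl14 by 0.25 (adjusted p = 0.402) and Cxcl16 by -0.05 (adjusted p = 0.800). Among the receptors Cx3cr1 was 0.57 higher (SE 0.17, adjusted p = 0.0321) and Cxcr6 0.25 higher (adjusted p = 0.0428) in KO, and Cxcr2 was 0.43 lower in KO (log2 difference -0.43, adjusted p = 0.0255). These receptor calls were lost in 4, 11 and 3 of 15 fits that left out 1 array, for Cx3cr1, Cxcr6 and Cxcr2 in turn. The Cx3cr1 and Cxcr6 calls were also lost with each array centred on its median and with the mean of the gene's probe sets. Among genes above the median level the Cx3cr1 call was lost, and with the replicate block those of Cxcr6 and Cxcr2 were. Centring each array on its own median moved the naive median of all genes by -0.156, and under it Cxcl12 differed by 0.50 (adjusted p = 0.0290), Cxcl2 by -0.61 and Cxcl9 by -0.50.

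**Figure D5:**
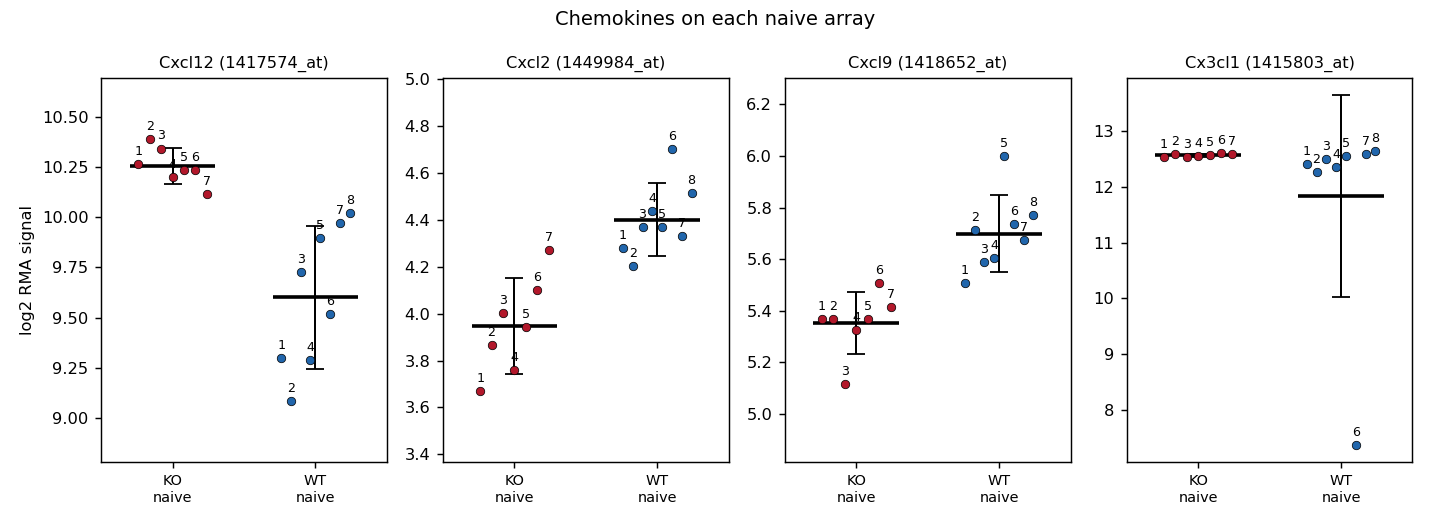
Log2 RMA signal of Cxcl12, Cxcl2, Cxcl9 and Cx3cl1 on every naive array (points numbered by array), with the group mean (horizontal bar) and SD (error bar), on separate vertical scales. KO lies above WT for Cxcl12 and below it for Cxcl2 and Cxcl9, and WT array 6 stands alone at 7.36 for Cx3cl1.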

How the data were processed

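The authors deposited log2 expression values made by RMA (background correction, quantile normalization and summary per probe set), per the submitters' processing notes, which give no version; surgery and naive arrays were normalized separately, per the labels. Probe sets were named through the platform annotation, updated by Entrez identifier. Of 45101 probe sets, 64 controls were left out, 932 carried several symbols and 9160 none, and 34945 carried 1. limma 3.58.1 in R 4.3.3 was fitted to the 20 surgery arrays and, apart, to the 15 naive arrays, with no covariate. Each gene was represented by its brightest probe set, judged by the mean of the arrays fitted. P-values were adjusted by Benjamini-Hochberg over all genes, or over all probe sets where a further probe set of a gene is given, and called at 0.05. The script was tested on simulated data. The members and lists were chosen with earlier results of these data known. List genes were named where they are receptors of a member or had the smallest or next smallest p of their list. Promoters came from RefSeq GRCm38.p6. The alternatives are given in the closing section, and those on KO MCAO arrays 2 and 5, on the closest array pairs and on the Gapdh covariate were chosen after seeing the data. Values of the targeted receptor gene are left out.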

Additional observations from a re-analysis of the deposited data

Results flagged for a closer look

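Within groups of 7 or 8 arrays, combinations of probe set and group share arrays and genes, so no chance rate is given. Of 84 combinations, 15 held an array far from the others of its group. WT naive array 6 accounted for 11 of them. On that array Cx3cl1 read 7.36 on 1415803_at, 8.29 on 1415804_at and 5.68 on 1421610_at, below the other WT naive arrays, and 6.56 on 1441884_x_at, above them. Cxcl14 (1418456_a_at) read 9.24, also below. Above the others were Cxcl1 at 5.44 on 1419209_at and 8.67 on 1457644_s_at, Cxcl5 at 4.55, Cxcl9 (1456907_at) at 5.32, Cxcl12 (1448823_at) at 9.77 and Cxcl13 (1417851_at) at 5.3. KO naive array 4 was low for Cxcl12 (1439084_at) at 6.74, against 7.19 to 7.37 on the other KO naive arrays, and for Cx3cl1 (1415804_at) at 10.89, against 11.54 to 11.75.

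Among the surgery arrays, KO MCAO array 1 was high for Cxcl9 (1418652_at) at 5.16, against 4.43 to 4.63 on the others, still near background, and WT MCAO array 4 was high for Cxcl2 at 10.12, against 7.37 to 8.43 on the others. The change after MCAO, KO minus WT, passed the test for Cxcl1 (1441855_x_at) at -1.17 and for Cxcl16 (1418718_at) at -0.68, and neither call held in every alternative.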

How the results depend on the processing

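The counts of members called after MCAO were 1 in KO and 7 in WT, 2 for the difference between genotypes in that change, 0 for KO against WT after MCAO, 0 after sham surgery and 3 in naive mice. Leaving out each array in turn gave 1 to 3 in KO, 3 to 7 in WT, 0 to 4 for the difference in change, 0 after MCAO, 0 after sham and 3 to 4 in naive mice. Of all genes those fits called 12.8% to 29.7% in KO and 7.89% to 17.8% in WT. They called 0 to 14.8% for the difference in change and 11% to 36.5% in naive mice. Among genes above the median level, with 5 members measured, the counts were 0 in KO, 4 in WT and 1 in naive mice. Of all genes above that level 31.1%, 22.5% and 1.79% were called. With the mean of a gene's probe sets the counts were 3 in KO and 1 for the difference in change. That setting called 23.3% and 9% of all genes. With array weights the counts were 3 in KO, 4 for the difference in change, 4 after sham and 5 in naive mice. The shares of all genes called were 39.8%, 22.5%, 32.4% and 42%. Under these weights probe set 1456907_at of Cxcl9 turned to 0.16 in naive mice (adjusted p = 0.0228) from -0.01. The actin covariate gave 0 for the difference in change and 2 for KO against WT after MCAO, namely Cxcl1 (-0.58, adjusted p = 0.0286) and Cxcl14 (0.41, adjusted p = 0.0421). Over all genes it gave 8 calls for the difference in change, against 1744, 986 for KO against WT after MCAO (5.42%), against 8, 6 after sham, against 1101, and 6243 in naive mice, against 2669. The Gapdh covariate gave 2 in KO and 1 for the difference in change, where 19.6% and 4.16% of all genes were called. Averaging the closest array pairs gave 1 for that difference, where 8.13% of all genes were called. Without KO MCAO arrays 2 and 5 the counts were 3 in KO and 0 for the difference in change. Over all genes 20.3% and 2.5% were then called. A fit to only the arrays compared gave 5 after sham, where 3451 genes (19%) were called against 1101. An adjusted p under 0.01 gave 3 in WT, where 7.07% of all genes were called. For the difference in change it gave 0 members, where 0 of 18193 genes were called in limma. The replicate block gave 3 in WT, where 11.1% of all genes were called, and changed no other count. Whether the replicate numbers pair the samples cannot be decided from correlations of same-numbered arrays. Deviations from the group mean correlated above 0.1 in 5 of 7 naive pairs, at most 0.466. The same held in 2 of 7 pairs of KO and WT MCAO and 1 of 3 of KO and WT sham. It held in 1 of 3 pairs of WT MCAO and sham and 0 of 3 of KO MCAO and sham. The main fits used no pairing. Where values are near background, the signal limits what a fold can show. The causes of these shifts were not tested.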
